A study of Caenorhabditis elegans with 2 samples.

Results

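The sls-2 genes of *Caenorhabditis elegans* encode SL2 RNA, a small nuclear-type RNA whose 5′ end is a short leader. The leader is trans-spliced onto messenger RNAs, chiefly those of genes that lie downstream in an operon. Like other small nuclear RNA (snRNA) genes they are transcribed from compact promoters in which a proximal sequence element, bound by the SNAPc complex, sits shortly before the start, and their RNAs carry a binding site for the ring of Sm proteins. SL1 RNA, which supplies the other spliced leader, comes from sls-1 genes that are repeated in tandem with the 5S ribosomal RNA genes. The 18 annotated sls-2 genes are set here against chromatin immunoprecipitation with sequencing (ChIP-seq) of CEH-82, a homeobox protein. 4 of the 18, namely sls-2.1, sls-2.2, sls-2.4 and sls-2.8, were chosen by a measured value: each has the summit of a peak that passed the authors' reproducibility threshold near its start. Their presence, signal and rank in that peak list are therefore a description, and no test was made on them.

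The ChIP was made against CEH-82 joined to eGFP, a green fluorescent protein, in whole larvae of the second stage (L2), male and female pooled. Both biological replicates came from strain OP212, which carries the unc-119(ed3) mutation on chromosome III and the transgene ddEx58, a name that by convention denotes an extrachromosomal array. Arrays of that kind can be lost from some cells, and the promoter that drives the tagged protein is not given in the labels. The replicates form 1 group, with no other genotype, stage or untagged strain, so the values below are compared between genes and between replicates, never between conditions.

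The upstream sequences show where the summits fall and what the genes have in common. Each line below gives the 70 bases before the annotated start and the leader, from the RefSeq sequence of WBcel235, the assembly that ce11 names. The capitals at the right-hand end mark the leader that is transferred to messenger RNAs. The capitals further left mark the letters TGTCNG, where N is any base, searched on the sense strand from 50 to 44 bp before the start. The first 3 genes are shown because sls-2.1 and sls-2.2 have a thresholded peak and sls-2.3, which lies beside sls-2.2, does not. sls-2.8 is the member least like them, sls-2.14 has no summit that passed the threshold, and sls-2.12 and sls-2.10 have no listed summit near their start in any list.
sls-2.1: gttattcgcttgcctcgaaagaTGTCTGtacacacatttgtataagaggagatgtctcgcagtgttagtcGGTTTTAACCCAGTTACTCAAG
sls-2.2: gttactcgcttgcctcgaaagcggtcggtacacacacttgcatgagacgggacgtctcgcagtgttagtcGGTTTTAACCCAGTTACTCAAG
sls-2.3: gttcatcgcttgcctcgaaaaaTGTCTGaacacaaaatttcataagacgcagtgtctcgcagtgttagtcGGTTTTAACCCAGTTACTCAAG
sls-2.8: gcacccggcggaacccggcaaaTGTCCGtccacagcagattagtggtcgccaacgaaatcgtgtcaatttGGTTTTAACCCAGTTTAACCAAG
sls-2.14: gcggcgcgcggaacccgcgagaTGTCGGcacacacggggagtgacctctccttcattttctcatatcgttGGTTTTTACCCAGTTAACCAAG
sls-2.12: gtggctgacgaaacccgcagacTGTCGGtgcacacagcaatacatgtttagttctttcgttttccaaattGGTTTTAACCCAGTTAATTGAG
sls-2.10: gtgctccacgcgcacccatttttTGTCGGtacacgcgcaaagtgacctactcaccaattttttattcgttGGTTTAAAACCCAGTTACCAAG
The letters were present in that window in 15 of the 18 sls-2 genes, starting at −48 in 13 of them, and in 3 of the 4 genes with a thresholded peak. sls-2.2, which has such a peak, lacks them, as do sls-2.6 and sls-2.7. Among all 46890 annotated nuclear genes 380 (0.810%) had them, and among the 781 genes with a thresholded summit near the start 15 (1.92%) did. Of the 99 snRNA genes outside the sls families 36 (36.4%) had them, including 3 of the 6 with a thresholded summit. The sequence thus marks sls-2 genes with and without peaks, and a match of letters is not a measured binding site. No source is given here for the letters or the search window. Apart from N, they spell bases that most of the 18 sls-2 genes share from −48 to −43. The high sls-2 share is therefore a description and no independent result.

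The transcripts of sls-2.1 and sls-2.8 are shown whole because their peaks had the highest and the lowest signal of the thresholded sls-2 peaks. Capitals mark the leader at the 5′ end and the letters AATTTTTGG, which resemble an Sm-binding stretch.
sls-2.1: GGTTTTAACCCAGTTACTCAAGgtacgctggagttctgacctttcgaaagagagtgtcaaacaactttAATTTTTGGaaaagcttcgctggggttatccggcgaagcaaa
sls-2.8: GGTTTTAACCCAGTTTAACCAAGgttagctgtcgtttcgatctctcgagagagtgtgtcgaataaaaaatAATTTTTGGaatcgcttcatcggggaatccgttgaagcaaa
Those letters were found in 13 of the 18 sls-2 transcripts, which are 107 to 114 bases long in the annotation. sls-2.1, sls-2.4 and sls-2.8 hold them and sls-2.2 does not.

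Per the deposited lists, each replicate had 30000 regions ranked by a signal value in the authors' caller's own units, the pooled replicates gave 9070 regions, and 537 of these (5.92%) passed the threshold. Signal among the 537 ran from 21.1 to 211 (median 28.2), and they are the strongest of the pooled regions. The lists hold no read counts, so sequencing depth is unknown. The signal values come from separate lists, so they are compared within a list, and ranks are given beside them. A gene was counted as having a summit when one lay from 1000 bp upstream to 200 bp downstream of its annotated start.

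By that window, 4 of 18 sls-2 genes (22.2%) had a thresholded summit. Over all 46926 annotated genes the share was 1.66%, and over all 129 genes annotated as snRNA it was 7.75%, the sls-2 genes included. Outside the sls families 6 of 99 snRNA genes (6.06%) had one. With any pooled summit the count was 8 of 18 sls-2 genes (44.4%), against 13.3% of all genes and 15 of 99 other snRNA genes. That count was 5 with a window of 150 bp on each side and 13 in the replicate 2 list alone. The share of all genes is not given for that window or that list, so the 13.3% is no match for these counts. The 12 sls-1 genes had 0 thresholded and 0 pooled summits. Since the sls-2 genes with a peak were picked on this readout, these shares are given without a test.

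**Figure D1:**
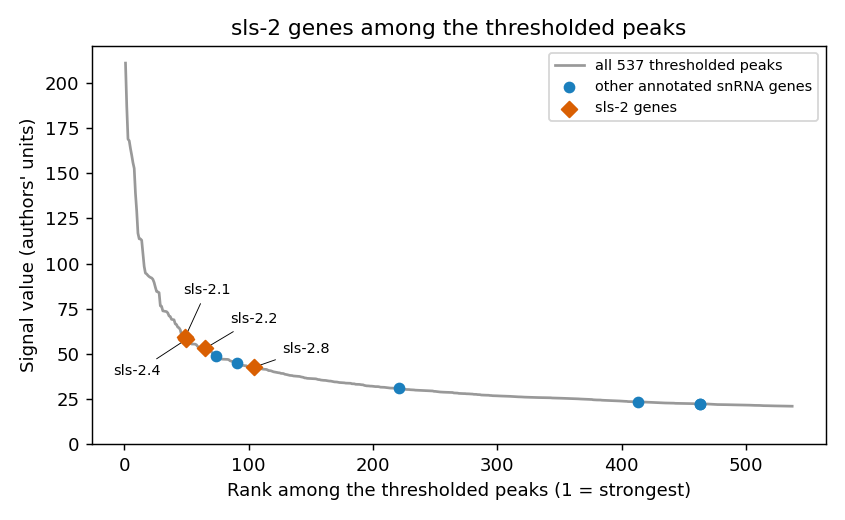
Signal value (vertical axis, authors' units) against rank among the 537 thresholded peaks (grey line), with the 4 sls-2 genes (orange diamonds) and the other annotated snRNA genes with a thresholded summit (blue circles; 2 of the 6 share 1 peak). The sls-2 genes lie at ranks 49, 50, 65 and 104, with signal values from 42.5 to 59.3.

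sls-2.1 (WBGene00004833) is annotated at II:5844865-5844974 on the plus strand and had the strongest sls-2 peak. Its pooled region, II:5844687-5844950, had a signal value of 59.3 and rank 49, with the summit 46 bp upstream of the start. In replicate 1 the signal value was 26.9 and the rank 27, with the summit at the same base. In replicate 2 they were 32.1 and 84, with the summit 43 bp upstream. The 3 summits lie within 3 bp of each other, at bases inside the left-hand capitals printed above.

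sls-2.4 (WBGene00004836), annotated at I:4172206-4172315 on the plus strand, followed directly in the pooled order. The region I:4172051-4172314 had a signal value of 58.1 and rank 50, with the summit 23 bp upstream. In replicate 1 it had a signal value of 17.7 and rank 72, with the summit 42 bp upstream. In replicate 2 it had 43.5 and rank 50, with the summit at −23, the pooled position. Its rank therefore moved little between the lists, while the replicate 1 summit lay 19 bp from the other.

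sls-2.2 (WBGene00004834), annotated at II:5543598-5543707 on the plus strand, differed most between replicates in rank. The pooled region II:5543425-5543688 had a signal value of 53.0 and rank 65, with the summit at −41. Replicate 2 gave a signal value of 45.5 and rank 41 with the summit at −46. Replicate 1 gave 10.3 and rank 273 with the summit at −80, which is 39 bp from the pooled one. It was the strongest of the 4 in replicate 2 and the weakest in replicate 1.

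sls-2.8 (WBGene00004840), annotated at III:12250465-12250575 on the plus strand, had the lowest signal of the 4. Its pooled region III:12250314-12250577 had a signal value of 42.5 and rank 104, still above 80.6% of the thresholded peaks, with the summit at −19. In replicate 1 the signal value was 17.7, the rank 73 and the summit 30 bp downstream of the start. In replicate 2 they were 24.9, 155 and 1 bp downstream. Its replicate summits were the only ones of the 4 that lay past the start, up to 49 bp from the pooled position.

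All 4 genes thus stood among the strongest 537 regions of both replicate lists, as did 240 of all 537 thresholded peaks (44.7%). The −log10 of the authors' q-value was the same for the 4, at 2.93 in the pooled list, 2.97 in replicate 1 and 3.09 in replicate 2, and so does not order them. The order by signal was sls-2.1, sls-2.4, sls-2.2 and sls-2.8 in the pooled list. It changed to sls-2.1, sls-2.4, sls-2.8 and sls-2.2 in replicate 1 and to sls-2.2, sls-2.4, sls-2.1 and sls-2.8 in replicate 2. sls-2.4 and sls-2.8 were nearly level in replicate 1, at ranks 72 and 73, and with 2 replicates no order among the 4 can be tested.

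**Figure D2:**
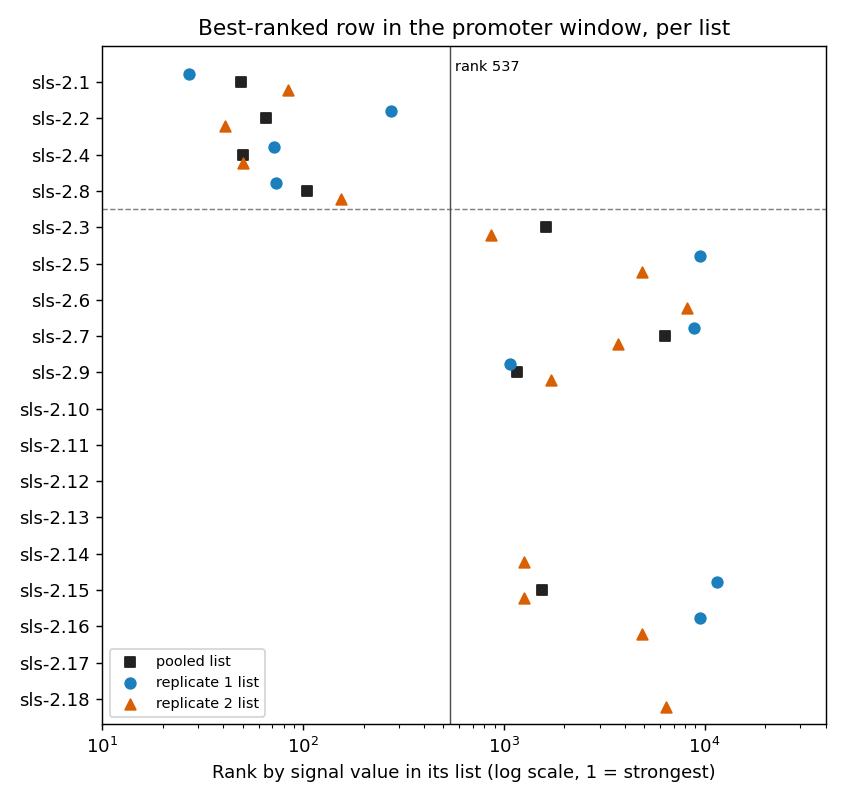
Best rank of any region with its summit in the promoter window, for each of the 18 sls-2 genes, in the pooled (black squares), replicate 1 (blue circles) and replicate 2 (orange triangles) lists, on a log axis. The genes above the dashed line are the 4 with a thresholded peak, at ranks 27 to 273. The vertical line marks rank 537, and the best rank of any other sls-2 gene is 861.

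The threshold fell well below these genes: the weakest thresholded region had a signal value of 21.05 and the strongest pooled region outside it 21.02. No sls-2 gene lay near it from below, since the 4 others with a pooled summit had signal values from 8.20 to 14.1 and ranks from 1159 to 6333. In the replicate lists 5 of the other 14 genes had a region in replicate 1, at rank 1072 or worse, and 9 had one in replicate 2, at rank 861 or worse. The 4 thus ranked above the other sls-2 genes in every list. In the pooled list this follows from the threshold by which they were chosen. The replicate lists fed that pool, so they give no independent support.

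sls-2.3 (WBGene00004835, II:5544164-5544273, minus strand) is the gene whose weaker summit was placed most like those of the 4. Its pooled summit was at −31, with a signal value of 12.3 and rank 1620. Replicate 2 had a summit at −46 with a signal value of 11.4 and rank 861. Replicate 1 had none in the window, and its nearest was 307 bp downstream of the start with a signal value of 5.45 and rank 3253. sls-2.3 and sls-2.2 point towards each other, and the thresholded sls-2.2 summit lies 716 bp downstream of the sls-2.3 start.

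The other weak pooled summits lay farther from the sls-2 start or nearer to another gene. That of sls-2.9 was at −219, with a signal value of 14.1 and rank 1159. It lies at −1 relative to the start of the non-coding RNA gene M01E5.8 and 87 bp downstream of the start of a tRNA gene on the other strand. Replicate 2 put a sls-2.9 summit at −26, with a signal value of 8.49 and rank 1713. That of sls-2.7 was at −217, with a signal value of 8.20 and rank 6333, and lies 72 bp into the protein-coding gene W06D4.3. The summit counted for sls-2.15, at −779 with a signal value of 12.5, is also 292 bp downstream of the start of the neighbouring sls-2.14.

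5 genes had no region with a summit in the window in any list, namely sls-2.10, sls-2.11, sls-2.12, sls-2.13 and sls-2.17. All 5 lie on chromosome IV, and they are all of the sls-2 genes there. The remaining 5, sls-2.5, sls-2.6, sls-2.14, sls-2.16 and sls-2.18, had regions in a replicate list only, the best of them at rank 1264. Some of these are 1 region counted for 2 neighbouring genes.

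**Figure D3:**
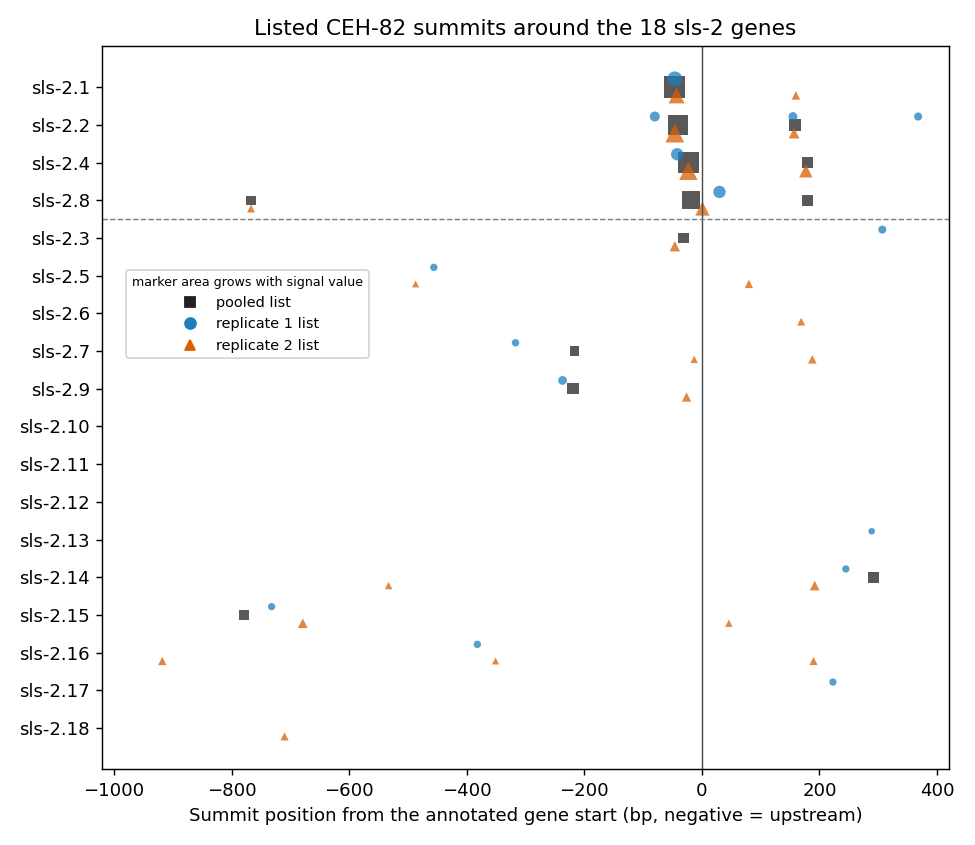
Position of every listed summit around each of the 18 sls-2 genes, in bp from the annotated start (negative is upstream), by list. Marker area grows with signal value, and the genes above the dashed line have a thresholded peak. The thresholded summits and their matches in the replicate lists lie from −80 to 30 bp. Other markers lie within that range and on both sides of it. The largest of these is at 177 bp for sls-2.4 in replicate 2, with a signal value of 21.2.

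The thresholded summits of the 4 genes lay close to the start, at −46, −41, −23 and −19, with a median of −32 and a range of 27 bp. In each case the sls-2 start is the nearest annotated start of any kind. Of the 10 pairs of an snRNA gene and a thresholded summit, 7 (70%) fell from 50 to 1 bp upstream, and the median of the 10 was −31. The 4 chosen sls-2 genes are among these 7. Of the 6 other pairs, R07E5.16 (−19), F38E11.11 (−39) and T11F9.15 (−44) fell there. Those of sup-6 (−64), mir-1831 (52) and sup-39 (59) did not. The share was 7 of 23 (30.4%) for tRNA genes, 7 of 41 (17.1%) for snoRNA genes and 25 of 510 (4.90%) for protein-coding genes, whose median offset was −249.5 bp. Genes of different length and neighbourhood enter these shares, and a peak can count for several genes.

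**Figure D4:**
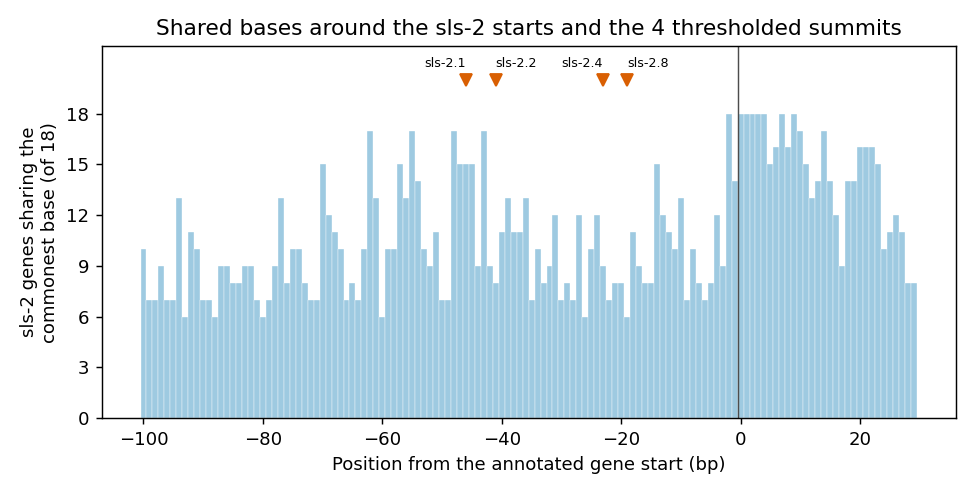
Number of the 18 sls-2 genes that share the commonest base at each position (bars, vertical axis) from 100 bp before to 30 bp after the annotated start (horizontal axis), with the 4 thresholded summits marked by triangles. Bases are shared most in the leader and at scattered upstream positions, among them −62, −55, −48 and −43, each with 17 genes. The summits at −46 and −41 lie near the last of these, and those at −23 and −19 lie where 9 and 6 genes share a base.

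A second, weaker summit lay downstream of most of these genes. In the pooled list it was 158 bp past the start of sls-2.2, with a signal value of 16.6 and rank 846. At sls-2.4 it was 180 bp past the start, with 15.3 and rank 967, and at sls-2.8 also 180 bp, with 13.1 and rank 1369. sls-2.1 had none in the pooled list, and replicate 2 alone had one at 160 bp, with a signal value of 6.57 and rank 3794. With transcripts of 110 to 111 bp, these summits lie past the annotated 3′ end. Such a summit was not particular to the chosen genes. In at least 1 list, 9 of the 18 sls-2 genes had one from 150 to 230 bp downstream. Genes without a thresholded peak among them were sls-2.6, sls-2.7, sls-2.14, sls-2.16 and sls-2.17, none of which had it in the pooled list. That of sls-2.14 in replicate 2, at 192 bp, had a signal value of 9.59 and rank 1264. The range closely encloses the summits found, from 155 to 223 bp, and extends past the 200 bp limit of the promoter window. The summit at 223 bp is that of sls-2.17 in replicate 1, with rank 11035. No share of all genes is given for the range, so the count of 9 is a description without a background.

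Among the 4 chosen genes, only sls-2.2 had the downstream summit listed in both replicates. There it was at 155 bp in replicate 1, with rank 888, and at 157 bp in replicate 2, with rank 733. At sls-2.4 replicate 2 had one at 177 bp with a signal value of 21.2 and rank 225, and replicate 1 had none. At sls-2.8 neither replicate list had a downstream summit near the pooled one. Only 8 of the pooled regions overlap a thresholded peak without being one, so 1.49% of the 537 peaks have such a partner. 3 of the 8 are at sls-2 genes and another is at a further snRNA gene, T11F9.15. The spacing between the paired summits was 199 to 214 bp for all 8. That it is less than the width of a pooled region follows from the overlap by which the pairs were picked. No source used here gives how close the authors' caller could place separate summits.

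Other genes share these promoters, so a summit in the window cannot be assigned to the sls-2 gene by position alone. Non-coding RNA genes are annotated on the opposite strand over 3 of the 4: C17C3.23 over sls-2.2, R12E2.18 over sls-2.4 and Y75B8A.49 over sls-2.8. The thresholded summits lie 141, 123 and 126 bp downstream of these genes' starts, and the weaker downstream summits lie at −58, −80 and −73 relative to them. The sls-2.8 summit lies at −282 relative to the start of tim-1, which encodes a timeless-family protein needed for chromosome cohesion, and at −214 relative to Y75B8A.23. The weaker downstream summit of sls-2.8 is at −15 relative to Y75B8A.23. The sls-2.4 summit lies at −594 relative to egg-5, which acts in the egg-to-embryo transition, and the sls-2.1 summit at −958 relative to H41C03.3. The sls-2.2 summit lies at −616 relative to the non-coding RNA gene C17C3.22.

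In upstream sequence the 4 do not form 1 class. Over the 100 bp before the start, sls-2.1 and sls-2.2 were identical at 79% of positions, the closest pair among the 4. sls-2.3, without a thresholded peak, was identical to sls-2.1 at 70%. The closest gene to sls-2.4 was sls-2.3, at 63%, and the closest to sls-2.8 was sls-2.15, at 50%, neither of which passed the threshold. The 6 pairs among the 4 genes ranged from 30% to 79% with a median of 46.5%, the 56 mixed pairs from 19% to 70% with a median of 35.5%, and the 91 pairs of other sls-2 genes from 22% to 96% with a median of 38%. sls-2.12 and sls-2.17 were the most alike of all, at 96%, and neither had a region in the window.

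The upstream stretches shared within groups of sls-2 genes on the same chromosome differ in position and length. The longest shared by sls-2.1, sls-2.2 and sls-2.3 covers the 17 bases before the start, and was found before no other of the 46890 nuclear gene starts. The longest shared by sls-2.8, sls-2.14 and sls-2.15 begins 63 bp before the start of sls-2.8 and was found before 45 gene starts.
shared by sls-2.1, sls-2.2 and sls-2.3: gtctcgcagtgttagtc
shared by sls-2.8, sls-2.14 and sls-2.15: gcggaacccg
Both stretches occur in genes with and without a thresholded peak. A longer stretch of 31 bases, shared by sls-2.12, sls-2.13 and sls-2.17 and found before 5 gene starts, belongs to genes with no region in the window.

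Homeodomain proteins often recognise a short core, TAAT, and its extensions. In 201 bp windows centred on the thresholded summits and searched on both strands, the extension TAATTA was found at 0 of the 4 sls-2 genes and at 5.77% of the 537 peaks. For TAATTG the values were 0 of 4 and 6.33%, and for TAATCC 0 of 4 and 1.86%. TAAT itself, which those longer words contain, was found at sls-2.4 and sls-2.8, against 57.4% of all thresholded peaks. ATCGAT was found at 0 of the 4 and at 11.2% of all peaks, and GAGAGAGA at 0 of the 4 and at 14.2%. The remaining pooled regions held TAATTA at 7.89%, TAATTG at 13.7%, TAATCC at 6.56% and TAAT at 78.9%. Each of these shares is higher than in the thresholded peaks. For ATCGAT, at 7.75%, and GAGAGAGA, at 3.97%, the remaining regions had the lower share. The letters not found are absent from these windows only, which says nothing of CEH-82's own preference. GC content was 51.2% at sls-2.1, 47.8% at sls-2.2 and sls-2.4 and 47.3% at sls-2.8, and the median was 46.3% for all thresholded peaks and 37.8% for the remaining pooled regions.

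The sequence around the sls-1 genes is mostly repeated elsewhere in the genome. The genes lie at V:17118154-17132107, where none of the 3 lists had a summit, and the nearest pooled summit was 8513 bp away. In windows as wide as a pooled region, 0% of the 36-base words were found once in the genome at 11 of the 12 sls-1 genes and 15.7% at sls-1.12. The mean was 85.6% at the 4 sls-2 genes with a thresholded peak, 86.0% at the other 14, and 98.3% over all thresholded peaks. No source used here gives the read length or says whether reads with several matches were kept, so the sls-1 count of 0 cannot be read as absence of CEH-82. Among sls-2 genes the share was lowest, at 45.4%, for sls-2.12, and it was 72.9% at both sls-2.1 and sls-2.3, which stood on opposite sides of the threshold. The sls-1 repeat also has the letters TGTCNG, in 10 of 12 genes, shown here for sls-1.10 with the first bases from its annotated start in capitals.
sls-1.10: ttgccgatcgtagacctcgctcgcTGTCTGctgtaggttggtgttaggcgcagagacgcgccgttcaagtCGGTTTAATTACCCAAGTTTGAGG
The 2 sls-1 genes without the letters in the search window, sls-1.1 and sls-1.5, are annotated as shortened copies of 68 bp. That window is counted from the annotated start, so letters placed elsewhere at these copies would not be counted.

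**Figure D5:**
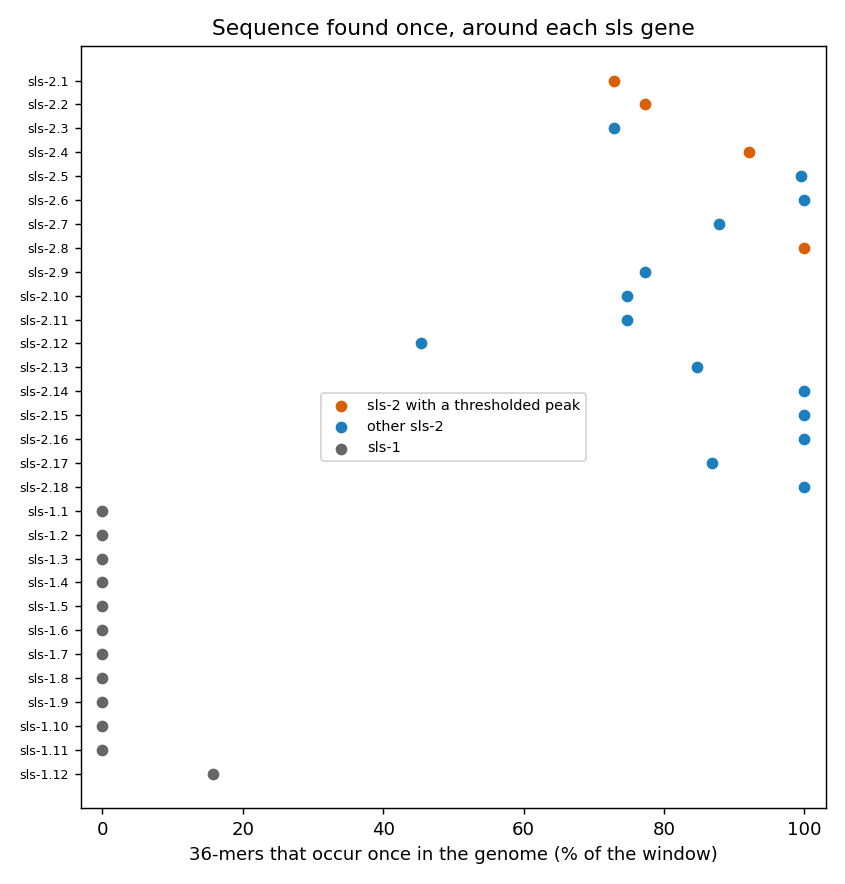
Share of the 36-base words, in a window as wide as a pooled region, that occur once in the genome (horizontal axis, %), for the 18 sls-2 and 12 sls-1 genes. Points at 0 are the sls-1 genes other than sls-1.12, and the sls-2 genes with a thresholded peak lie from 72.9% to 100%.

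Among other snRNA genes, R07E5.16 (WBGene00014543) had the strongest peak, with a signal value of 49.1, rank 74 and the summit at −19. It stands between sls-2.2 and sls-2.8 in the order by signal. T11F9.15 followed with 45.0, rank 91 and the summit at −44, in a peak whose summit is also at −351 relative to snr-4, a gene for an Sm protein. The other 4 were sup-6, F38E11.11, mir-1831 and sup-39, with signal values from 22.4 to 30.9. The last pair share 1 peak, and names such as mir-1831 show that the annotation's snRNA class is mixed.

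A fixed list was drawn up for trans-splicing and SL RNA transcription. Of its 37 matched genes, 3 (8.11%) had a thresholded summit and 13 (35.1%) any pooled summit, beside 1.66% and 13.3% of all genes. Those shares are over annotated genes of any kind, non-coding ones included. A share over protein-coding genes alone is not given. The count of 3 depends on the window: it was 0 with 150 bp on each side and 5 with 2000 bp upstream to 500 bp downstream. The 3 were snr-4, with a signal value of 45.0 at −351, snr-1, also an Sm protein gene, with 31.9 at −409, and prp-8, a core protein of the U5 particle, with 24.8 at −320. The Sm protein genes made up 6 of the 13. None of the 7 SNAPc genes passed the threshold, and the nearest was snpc-3.4, with a summit at −20, a signal value of 20.8 and rank 550. None of the 5 sna and sut genes on the list passed it either, and sna-3 had a pooled summit at −200 with a signal value of 13.9. The thresholded summits of these protein-coding genes lay from −409 to −320 relative to the start, against −46 to −19 for the sls-2 genes. The snr-4 summit is also the one at −44 relative to the snRNA gene T11F9.15, so it counts for both kinds of gene.

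At ceh-82 itself (WBGene00018433, II:1732232-1733291), none of the 3 lists had a summit in the gene or within 1000 bp of it. The nearest pooled summit was 14078 bp away. The lists therefore hold no region that marks the tagged gene, and they give no measure of its expression.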

How the data were processed

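Peak lists from CEH-82 ChIP-seq in 2 biological replicates (1 group) were analysed. Per the labels and the deposited file descriptions, the authors called regions for each replicate and for both pooled, against a control alignment that was not analysed here, and kept pooled regions that passed an irreproducible discovery rate threshold. No source used here names the aligner, the caller or the threshold. The authors deposited the signal value as a score of no stated scale, and the significance is, as deposited, the −log10 of a q-value. The lists hold no counts, so depth is unknown and no interval is given. Lists on ce10 were not used here.

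Summits were assigned to Ensembl release 115 genes on WBcel235 with Python 3.11.15, pandas 2.3.3, numpy 2.4.6 and Biopython 1.88, and sequences were read from RefSeq WBcel235. Coordinates are on ce11, 1-based. sls-1 genes were named from RefSeq by WormBase ID. Replicate summits were matched within 100 bp. Words of 36 bases were counted on both strands in windows as wide as a pooled region, centred on the summit, or on 60 bp upstream of the start where there was none. Identity was measured over 100 bp upstream without gaps and over aligned transcripts. Named genes were all sls genes, genes with a start within 1000 bp of a summit at an sls-2 gene, ceh-82, the 4 strongest snRNA genes and the listed trans-splicing genes with a thresholded summit. T11F9.15, the weaker snRNA genes, snpc-3.4 and sna-3 were named after their values were seen. The members and the lists were chosen with earlier results of these data known. The assignment steps were tested on simulated data.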

Additional observations from a re-analysis of the deposited data

How the results depend on the processing

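Of 49 alternatives tried, 43 left their result in place, 6 moved it and 0 reversed it. The count of 4 sls-2 genes with a thresholded summit held in every window tried, in the stronger 50% of the peaks and in each replicate alone, and the sls-1 count stayed at 0 in every alternative tried. That the 4 stayed in the windows and in the stronger 50% follows from the summit positions and ranks of the genes chosen. The replicate lists fed the pool, so the count of 4 there gives no independent support. The number of trans-splicing genes with a thresholded summit moved from 3 to 5 with a window of 2000 bp upstream to 500 bp downstream, and to 0 with 150 bp on each side, because their summits lie farther out. The number of sls-2 genes with any pooled summit moved from 8 to 5 with 150 bp on each side, and ranged from 6 to 13 with 1 replicate left out. It was 13 from replicate 2 alone, both with as many regions as the pooled list and with its full list, and the cause was not tested. No share of all genes is given for these alternatives. The median offset of −32 ranged from −44, with replicate 1 alone, to −33, with replicate 2 alone. Centring the word windows 60 bp upstream of every start was added after seeing the data. The mean share went from 85.6% to 86.4% at the 4 genes and from 86.0% to 87.7% at the other sls-2 genes. It stayed at 1.31% at the sls-1 genes. No paired analysis was possible because there is only 1 group. The 2 replicates and the missing read counts limit what can be said of differences among the sls-2 genes, and peaks called on a pool of both replicates are not independent of either.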
